A study of Mus musculus with 31 samples.

Results

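The enzymes described here are the 3 families that carry out most phase II conjugation in liver: UDP-glucuronosyltransferases (UGT), cytosolic sulfotransferases (SULT) and cytosolic glutathione S-transferases (GST). They were chosen by name, as every probe of the deposited table whose gene symbol began with Ugt1, Ugt2 or Ugt3, with Sult and a digit, or with Gst and a letter. The deposited table held 61 such probes among its 36057, for 44 of its 23968 gene names, and the array itself carried 77 such probes for 54 genes. UGT had 18 probes for 14 genes, SULT had 15 probes for 11 genes, and GST had 28 probes for 19 genes. The other 16 probes did not pass the authors' filter on dim or irregular spots and were not tested, which left 10 genes without a tested probe (Sult2a1 to Sult2a6, Sult3a1, Sult6b1, Gsto2 and Gstt4).

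The samples were livers of male C57BL6/J mice that had fasted for 24 h and were then refed for 18 h with 20% glucose in their drinking water, with 1 array for each mouse. ChREBPβ-deficient mice (8 arrays) carried a CRISPR/Cas9 deletion of the β-specific exon 1b of Mlxipl and were compared with their WT littermates (8 arrays). Total ChREBP-KO mice (7 arrays, replicates 1, 2 and 4 to 8) were Mlxipl-null, lacking the α and β isoforms, and were compared with WT littermates of their own line (8 arrays). Both deletions were present in all tissues, and ages are not given for these arrays, so liver-autonomous effects and effects from other organs cannot be told apart. Nothing beyond separate mice of several litters is stated of the replicates, and p-values measure the spread between these mice.

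Phase II enzymes attach a polar group to drugs, hormones, bile acids and products of metabolism, which makes them easier to export. UGT enzymes, in the endoplasmic reticulum, transfer glucuronic acid from UDP-glucuronic acid. SULT enzymes, in the cytosol, transfer sulfate from PAPS, and GST enzymes join glutathione to reactive, electrophilic compounds. ChREBP, the product of Mlxipl, is a glucose-responsive transcription factor known in liver for driving glycolytic and lipogenic genes.

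Levels are given as log2 of the quantile-normalised median signal of a probe, and each difference is the mean of the knockout mice minus the mean of their WT littermates on that scale. A probe was called when limma's p-value, adjusted by Benjamini-Hochberg over all 36059 probes tested, was under 0.05. Levels of different probes are not comparable, since probes hybridise with different efficiency. Every tested member was well above background on all 31 arrays, except Sult1e1 and Sult2b1, each on 7 of 8 arrays of 1 WT group. The filter kept a spot that passed on at least 26 arrays, as 53 members did, or on at least 6 arrays of 1 group, as the other 8 did (Gsta4, Gstt2 A_55_P2732713, Sult1b1 A_52_P644613, Sult1c2, Sult1e1, both Sult5a1 probes and Ugt3a2 A_52_P557240).

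Array correlations lay between 0.9805 and 0.99875, and hepatocyte markers (Alb, Ttr, Apoa1, Serpina1a, Tat and Hnf4a) summed to between 20.25 and 20.42 in every mouse. The lowest difference among these markers was -1.42e-14 in total ChREBP-KO mice and 0 in ChREBPβ-deficient mice. Quantile normalisation sets the highest values alike on every array. A sum of very bright markers can therefore vary little and does not measure hepatocyte content. Arrays were scanned on 2 days, and each day held all 4 groups. The Mlxipl probe A_55_P2119957 ranged from 13.89 to 14.30 with a median of 14.11 in total ChREBP-KO mice and from 15.14 to 15.48 with a median of 15.25 in their WT littermates, a difference of -1.16 (adjusted p = 8.05e-13). It ranged from 14.40 to 14.84 in ChREBPβ-deficient mice and from 14.88 to 15.33 in their WT littermates, a difference of -0.45 (adjusted p = 0.0152). At this probe the groups of each line did not overlap, in the direction of the labels. At A_55_P2728555 the differences were -0.59 (adjusted p = 0.00313) and -0.46 (adjusted p = 0.909), with overlap in both lines, and at A_55_P2045158 they were -0.05 (adjusted p = 0.603) and -0.06.

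Probes of the genes with the largest falls, and of the locus with opposite calls, are shown first, because genes of these families share sequence and a gene symbol does not tell which transcript was read. Both Sult5a1 probes fell in total ChREBP-KO mice and lie on the minus strand of chromosome 8 in mm9, the build of the array annotation, at chr8:125666951-125667010 and chr8:125681420-125681479. The other 3 probes, of the Ugt1 locus on the plus strand of chromosome 1, gave a fall, a rise and a difference that did not pass the test. Ugt1 enzymes have a first exon of their own, which is spliced to exons that all of them share. The probe of Ugt1a10 lies at chr1:89952780-89952839, a Ugt1a6b probe at chr1:90004249-90004308 and another Ugt1a6b probe, downstream, at chr1:90114900-90114959. The probes are printed 5′ to 3′ as deposited.
Sult5a1 A_51_P471458: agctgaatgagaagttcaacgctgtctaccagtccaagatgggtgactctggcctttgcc
Sult5a1 A_66_P127607: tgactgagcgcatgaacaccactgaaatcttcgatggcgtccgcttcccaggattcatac
Ugt1a10 A_55_P2178800: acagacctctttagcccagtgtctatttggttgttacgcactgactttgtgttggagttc
Ugt1a6b A_55_P2143765: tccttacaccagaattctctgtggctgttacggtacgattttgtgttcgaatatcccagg
Ugt1a6b A_55_P2742311: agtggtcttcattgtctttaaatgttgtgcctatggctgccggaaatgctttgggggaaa

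Of the 61 probes, 57 listed a curated RefSeq transcript in the array annotation and 6 listed transcripts of more than 1 gene. The latter were the probes named for Ugt2b36 (also Ugt2b37), Ugt2a1 (also Ugt2a2), Ugt1a10 (also Ugt1a9), Gstp1 (also Gstp2), Ugt1a6a and 1 probe of Ugt1a6b. A value given under these names may therefore belong to either gene.

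Promoters were searched for every member gene with a RefSeq start, and those of Gsta3, Sult1d1 and Sult5a1 are shown. RefSeq starts were found for 38 of the 44 genes, and 250 bases upstream of 49 starts were searched on both strands for 5 short motifs. The antioxidant response element core TGACNNNGC was in 3 of 49 member promoters (6.12%; Gsta3, Gstm5 and Gstm7) and in 10.2% of all 32851 promoters. The xenobiotic response element core GCGTG was in 9 of 49 (18.4%) and in 28.2% of all. CACGTG was in none (6.02% of all), TTATGTAA in 1 (Ugt2b1; 0.819% of all) and TTACGTAA in none (0.113% of all). Matches of different motifs were allowed to overlap. The windows upstream of Gsta3 (chr1:21240335-21240584, plus strand), Sult1d1 (chr5:87569007-87569256, minus strand) and Sult5a1 (chr8:123158281-123158530, minus strand) are given in GRCm38.p6, from RefSeq, because these genes held the probe with the largest rise, a rise at both probes, and the largest fall. Sult1a1, Gsto1 and Gstz1 also rose at both probes, and their windows, not shown, held none of the 5 motifs. The Gsta3 probe that rose lists no curated transcript, so the window shown need not be that of the transcript it reads. Capitals mark TGACNNNGC in Gsta3 and GCGTG, read on the other strand, in Sult1d1, and Sult5a1 held none of the 5 motifs.
Gsta3: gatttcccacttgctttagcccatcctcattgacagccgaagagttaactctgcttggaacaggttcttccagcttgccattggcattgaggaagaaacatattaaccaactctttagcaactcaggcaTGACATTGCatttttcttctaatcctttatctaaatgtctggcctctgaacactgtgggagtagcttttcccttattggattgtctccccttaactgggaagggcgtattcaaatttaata
Sult1d1: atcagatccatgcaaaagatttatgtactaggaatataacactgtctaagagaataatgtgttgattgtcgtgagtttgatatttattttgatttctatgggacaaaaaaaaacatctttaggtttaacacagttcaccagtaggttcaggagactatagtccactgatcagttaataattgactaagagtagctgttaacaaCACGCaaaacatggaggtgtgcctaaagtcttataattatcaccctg
Sult5a1: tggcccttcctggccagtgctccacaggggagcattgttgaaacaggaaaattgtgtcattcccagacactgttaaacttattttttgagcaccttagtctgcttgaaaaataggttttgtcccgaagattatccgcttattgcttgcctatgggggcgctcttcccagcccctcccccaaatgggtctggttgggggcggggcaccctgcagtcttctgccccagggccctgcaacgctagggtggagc

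In total ChREBP-KO mice, conjugation enzymes were mostly higher than in WT littermates. Of 61 probes, 24 rose, 6 fell and 31 did not pass the test. By gene, counting a gene when any of its probes was called, 18 of 44 rose, 5 fell and 21 did not pass. The share of probes called was 49.2%, beside 29.1% of all probes tested (14.5% higher and 14.6% lower). The median difference was 0.22, against 0.00825 over all probes, and 50 of 61 differences lay above 0, beside 51.9% of all probes. Most changes were small: the 24 rises ranged from 0.20 to 1.77 (1.15-fold to 3.42-fold), and the 6 falls from -1.70 to -0.32 (3.26-fold to 1.24-fold). A call with at least a 1.5-fold difference was made for 8 probes, beside 6.08% of all probes. In a bulk liver sample, fewer cells of a type and less RNA per cell cannot be told apart.

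Calls were made in all 3 families. SULT had 7 probes higher and 3 lower of 15 (66.7% called, median 0.44), UGT had 8 higher and 1 lower of 18 (50% called, median 0.22), and GST had 9 higher and 2 lower of 28 (39.3% called, median 0.22). By gene, on the same rule, 5 of 11 SULT genes rose and 2 fell, 6 of 14 UGT genes rose and 1 fell, and 7 of 19 GST genes rose and 2 fell. The order of the medians turned with the scan day, from UGT (0.405), GST (0.32) and SULT (0.155) on the first to SULT (0.585), GST (0.124) and UGT (0.0959) on the second, and the difference between families was not tested. Subfamilies also varied. All probes of Ugt3 (4), Ugt2a (2), Sult1a (2), Sult1d (2), Sult2a (2), Gsto (2) and Gstz (2) rose, while none of 11 Gstm probes passed the test and 1 of 7 Ugt2b probes did.

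**Figure D1:**
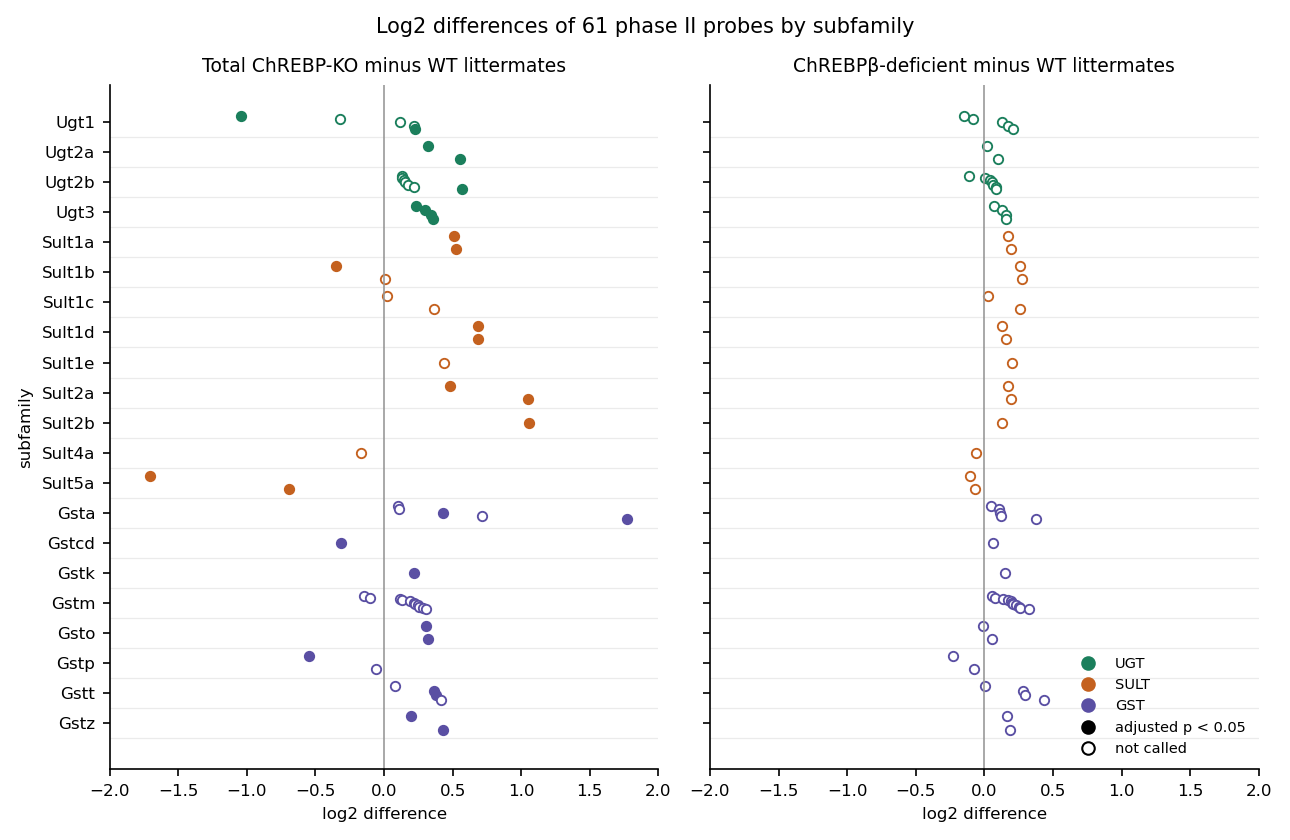
Log2 difference between total ChREBP-KO mice and WT littermates (7 and 8 arrays) and between ChREBPβ-deficient mice and WT littermates (8 and 8 arrays) for each of the 61 probes, by subfamily; filled points have an adjusted p under 0.05. In total ChREBP-KO mice the Ugt3, Sult1d and Sult2a points lie above 0 and the Sult5a points below it, and the Gstm points cluster near 0.22 without a filled point, while the other panel holds no filled point.

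The SULT family held the largest fall. Sult5a1, a member of a separate sulfotransferase subfamily, ranged at A_51_P471458 from 6.52 to 8.0 with a median of 7.83 in total ChREBP-KO mice and from 8.83 to 9.84 with a median of 9.27 in WT littermates. No knockout mouse reached the lowest WT mouse (4.14% of all probes were lower without overlap), and the difference was -1.70 ± 0.211 (SE), or 3.26-fold (adjusted p = 2.64e-07). The other probe, A_66_P127607, ranged from 4.89 to 5.53 in knockout mice and from 5.50 to 6.33 in WT littermates, overlapping at the edge, and fell by 0.69 (adjusted p = 0.000133). Within scan days, the falls at A_51_P471458 were -1.53 (adjusted p = 0.00615) and -1.85 (adjusted p = 2.98e-05). Both probes were among those kept through the group criterion: spots of A_66_P127607 passed on 3 of 7 total ChREBP-KO arrays and those of A_51_P471458 on 5 of 7, although all spots were well above background.

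Both measured members of the Sult2a subfamily, which sulfates bile acids and hydroxysteroids, rose. Sult2a7 (chr7:15050514-15050573, minus strand) ranged from 7.41 to 8.57 with a median of 8.34 in total ChREBP-KO mice and from 6.94 to 7.59 with a median of 7.14 in WT littermates. The lowest knockout mouse lay below the highest WT mouse and the others lay above it, and the difference was 1.05 ± 0.139 (SE), or 2.07-fold (adjusted p = 8.35e-07). It was 1.03 on each scan day (adjusted p = 0.0015 and 0.00315). Sult2a8 ranged from 15.05 to 15.65 in knockout mice and from 13.72 to 15.56 in WT littermates, a difference of 0.48 (adjusted p = 0.0391) that no longer passed the test when any 1 of 7 arrays was left out (WT replicates 1, 2 and 4, and total ChREBP-KO replicates 4, 5, 6 and 8). Over all single arrays left out it ranged from 0.31 to 0.57.

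Sult1d1, which sulfates catecholamines and other phenols, rose at both probes. A_51_P481721 (chr5:87984658-87984717) ranged from 11.47 to 12.36 with a median of 11.76 in total ChREBP-KO mice and from 10.78 to 11.38 with a median of 11.20 in WT littermates, and A_55_P2181542 (chr5:87985008-87985067) ranged from 10.78 to 11.70 and from 9.95 to 10.76. Neither probe's groups overlapped (3.26% of all probes were higher without overlap). The rises were 0.69 (1.61-fold, adjusted p = 1.8e-05) and 0.68 (1.60-fold, adjusted p = 0.000116), and each was called on each scan day.

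Sult1a1, the main phenol sulfotransferase of liver, rose by 0.51 (adjusted p = 0.00859) at A_51_P321341 and by 0.52 (adjusted p = 0.0133) at A_55_P2005475. At the former, knockout mice ranged from 15.29 to 15.80 and WT littermates from 14.24 to 15.79, so the groups overlapped, and neither scan day alone gave a call (0.43 and 0.58). Sult2b1, known for sulfating cholesterol, had a mean rise of 1.06 ± 0.377 (SE; adjusted p = 0.0336) that came from 2 mice. Total ChREBP-KO replicates 5 and 6 stood at 8.75 and 7.91, and the other 5 knockout mice, at 5.48 or lower, overlapped the WT range of 4.63 to 5.28. The call was lost without either of these mice or without WT replicate 4 or 5, with a difference of 0.60 or more over all arrays left out.

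Sult1b1, which acts on thyroid hormones and phenols, gave discordant probes. A_52_P644613 (chr5:87942561-87942620) ranged from 6.71 to 7.58 in total ChREBP-KO mice and from 7.26 to 7.99 in WT littermates, a fall of -0.35 (adjusted p = 0.0319), while A_55_P2136776 (chr5:87943760-87943819) differed by 0.01 (adjusted p = 0.966). The fall was lost without any 1 of 6 arrays (total ChREBP-KO replicates 1, 5 and 7, WT replicates 3, 7 and 8; -0.42 to -0.27) and was not called on either scan day. Sult1c2 (0.36, adjusted p = 0.132), Sult1c1 (0.02), the estrogen sulfotransferase Sult1e1 (0.44, adjusted p = 0.289) and Sult4a1, known from brain (-0.17, adjusted p = 0.0867), did not pass the test. Sult1e1 varied widely, from 5.53 to 7.04 in knockout mice and from 5.03 to 7.07 in WT littermates.

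**Figure D2:**
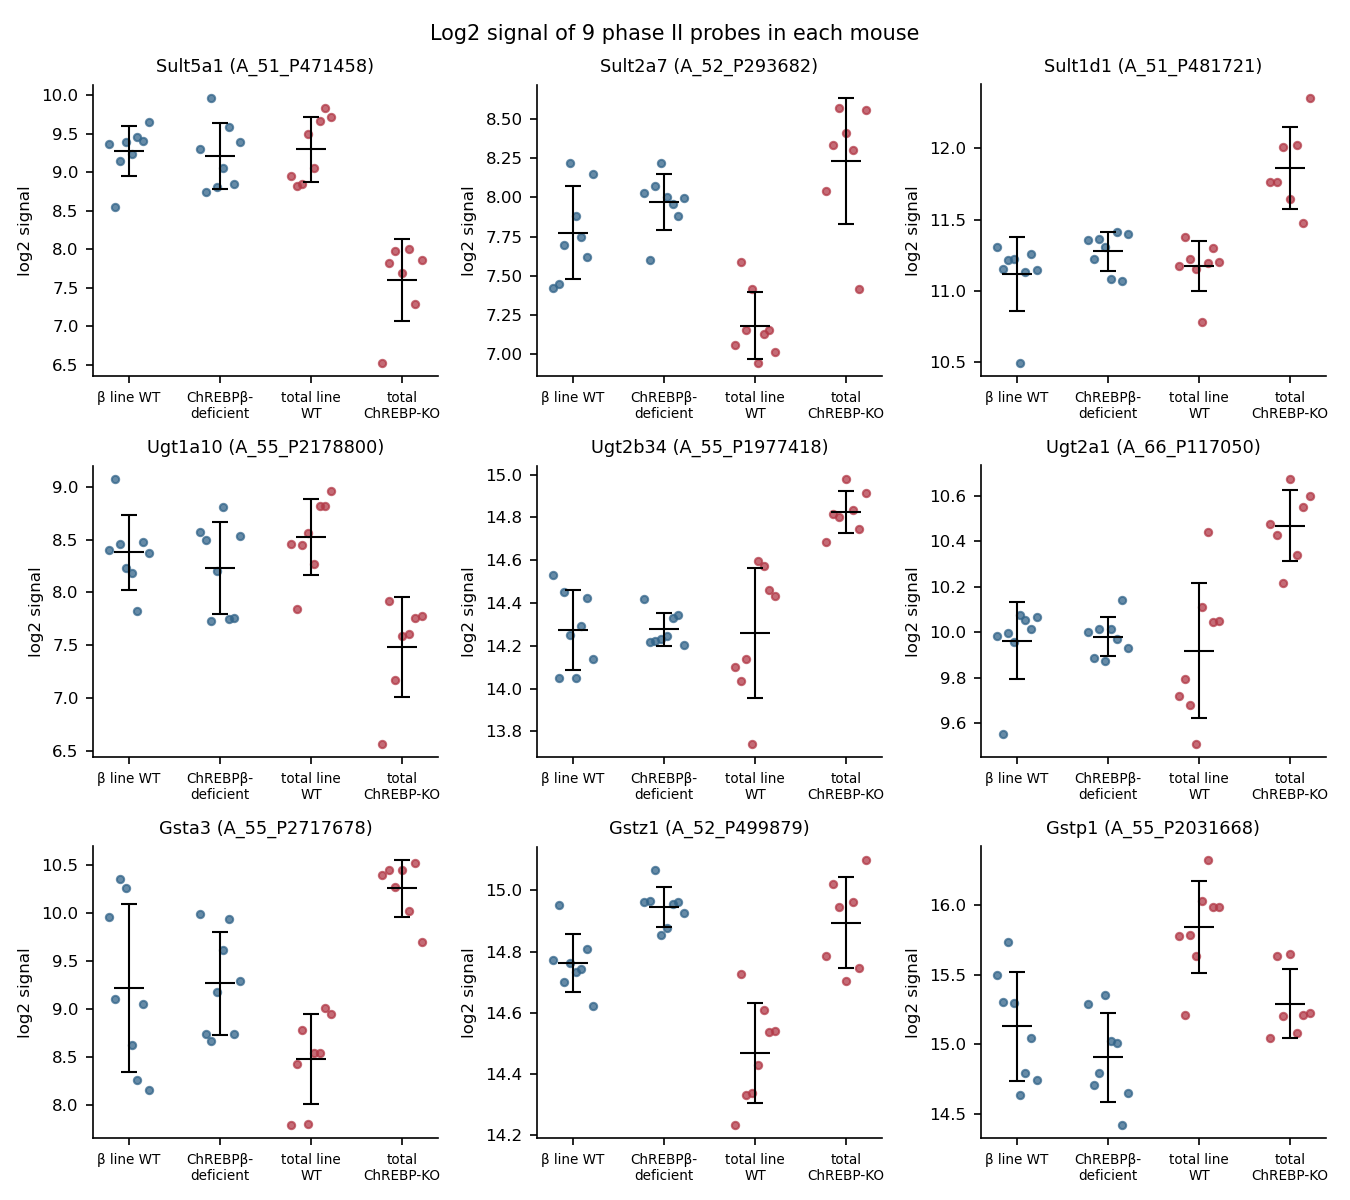
Log2 normalised signal in each mouse (points) for 9 probes in the 4 groups, with the mean and SD as bars; 7 total ChREBP-KO mice and 8 mice in each other group. Sult5a1, Sult1d1, Ugt2b34 and Gsta3 separate total ChREBP-KO mice from their WT littermates without overlap, while the ChREBPβ-deficient mice overlap their own WT littermates in all 9 panels.

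Among UGT enzymes, the Ugt3 genes moved together. Ugt3 enzymes differ from other UGTs in using UDP sugars other than UDP-glucuronic acid. Ugt3a1 ranged from 13.88 to 14.44 in total ChREBP-KO mice and from 13.65 to 14.13 in WT littermates, a rise of 0.36 ± 0.079 (SE; adjusted p = 0.000782). The 3 Ugt3a2 probes rose by 0.30 (adjusted p = 0.0036), 0.34 (adjusted p = 0.00631) and 0.23 (adjusted p = 0.0454). The last of these, A_52_P557240, was lost without any 1 of 15 arrays and its spots had passed the filter on 4 of 7 knockout arrays.

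In the Ugt2 family, which glucuronidates steroids, bile acids and many drugs, 3 of 9 probes rose. Ugt2b34 (chr5:87318849-87318908) ranged from 14.69 to 14.98 with a median of 14.82 in total ChREBP-KO mice and from 13.74 to 14.60 with a median of 14.29 in WT littermates, so that every knockout mouse lay above every WT mouse. The difference was 0.56 ± 0.096 (SE), or 1.48-fold (adjusted p = 3.74e-05), with 0.82 and 0.31 on the 2 scan days, both called. Ugt2a1 (chr5:87889468-87889527) ranged from 10.22 to 10.67 in knockout mice and from 9.51 to 10.44 in WT littermates, a rise of 0.55 (1.46-fold, adjusted p = 6.89e-05). Ugt2a3 rose by 0.32 (adjusted p = 0.0128). The other 6 Ugt2b probes, for Ugt2b1, Ugt2b5, Ugt2b35, Ugt2b36, Ugt2b37 and Ugt2b38, differed by 0.13 to 0.22 with adjusted p-values from 0.241 to 0.566, and all 6 lay below 0 on the second scan day.

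The Ugt1 locus, whose enzymes include those for bilirubin and small phenols, gave opposite calls. Ugt1a10 ranged from 6.56 to 7.92 with a median of 7.6 in total ChREBP-KO mice and from 7.84 to 8.96 with a median of 8.51 in WT littermates. The lowest WT mouse lay among the knockout mice and the others lay above them, and the difference was -1.04 ± 0.199 (SE), or 2.06-fold (adjusted p = 0.000166), with -1.02 (adjusted p = 0.0232) and -1.0 (adjusted p = 0.0129) within scan days. Of the probes named for Ugt1a6b, the downstream A_55_P2742311 rose by 0.22 (adjusted p = 0.018), the upstream A_55_P2143765 differed by 0.22 (adjusted p = 0.107) and A_55_P1962404, which lists transcripts of several Ugt1a genes, by 0.12 (adjusted p = 0.0965). The annotation lists only Ugt1a6b for A_55_P2742311, which lies near A_55_P1962404. Whether A_55_P2742311 reads other Ugt1a transcripts was not tested, so its rise need not belong to Ugt1a6b alone. The Ugt1a6a probe, which also lists transcripts of several Ugt1a genes, differed by -0.32 (adjusted p = 0.108).

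Within GST, the alpha class, which handles lipid peroxidation products, had the largest difference at 1 probe. Gsta3 A_55_P2717678 (chr1:21246334-21246393, plus strand) ranged from 9.70 to 10.52 with a median of 10.39 in total ChREBP-KO mice and from 7.79 to 9.01 with a median of 8.54 in WT littermates, without overlap. The difference was 1.77 ± 0.288 (SE), or 3.42-fold (adjusted p = 1.97e-05), with 2.18 (adjusted p = 0.000575) and 1.32 (adjusted p = 0.0282) within scan days. The other Gsta3 probes, A_51_P503625 and A_55_P1961423 at chr1:21255189-21255248 and chr1:21255043-21255102, differed by 0.10 (adjusted p = 0.208) and 0.11 (adjusted p = 0.127). The probe that rose lies upstream of those 2 and listed no curated transcript, so which transcript it reads is not given. Gsta4, known for conjugating 4-hydroxynonenal, rose by 0.43 (adjusted p = 0.00701), from a range of 10.18 to 10.82 in WT littermates to 10.75 to 11.30 in knockout mice. Gsta2 ranged from 13.61 to 14.75 and from 12.45 to 14.12, a difference of 0.71 that missed the threshold (adjusted p = 0.0646).

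Gstz1, the maleylacetoacetate isomerase of tyrosine breakdown, rose at both probes. A_52_P499879 (chr12:88505142-88505201) ranged from 14.70 to 15.10 in total ChREBP-KO mice and from 14.23 to 14.73 in WT littermates, a rise of 0.43 ± 0.066 (SE; adjusted p = 8.6e-06), and A_55_P1988708 rose by 0.20 (adjusted p = 0.0121). Gsto1, an omega class enzyme with reductase activity, rose by 0.32 (adjusted p = 0.00188) and 0.30 (adjusted p = 0.00518). At A_66_P123040 the rise was 0.54 (adjusted p = 0.00236) on the first scan day and 0.09 (adjusted p = 0.46) on the second. Gstk1, of mitochondria and peroxisomes, rose by 0.22 (adjusted p = 0.0361), a call lost without any 1 of 6 arrays (WT replicates 1, 3 and 4, total ChREBP-KO replicates 4, 6 and 8; 0.18 to 0.25).

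In the theta class, Gstt3 (chr10:75236966-75237025) ranged from 12 to 12.63 with a median of 12.36 in total ChREBP-KO mice and from 11.52 to 12.30 in WT littermates, a rise of 0.36 (adjusted p = 0.0216) that was lost without WT replicate 3 or total ChREBP-KO replicate 8. Gstt2 rose by 0.38 at A_51_P350048 (adjusted p = 0.0322), which was lost without any 1 of 5 arrays (WT replicates 1, 4 and 5, total ChREBP-KO replicates 2 and 4; 0.31 to 0.43), and differed by 0.41 at A_55_P2732713 (adjusted p = 0.345). Gstt1 differed by 0.08 (adjusted p = 0.523). The mu class did not pass the test at any of 11 probes, with differences from -0.15 to 0.30 and adjusted p-values from 0.0855 to 0.590.

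Gstp1, the pi class enzyme known to be more abundant in male than female mouse liver, was the larger GST fall. It ranged from 15.04 to 15.65 with a median of 15.21 in total ChREBP-KO mice and from 15.21 to 16.33 with a median of 15.88 in WT littermates, a difference of -0.55 ± 0.163 (SE; adjusted p = 0.0105). The fall was -0.91 (adjusted p = 0.00487) on the second scan day and -0.22 (adjusted p = 0.562) on the first. Gstp2 differed by -0.06 (adjusted p = 0.451). Gstcd, named for its GST C-terminal domain, fell by 0.32 (adjusted p = 0.0079), from 5.46 to 6.0 in WT littermates to 5.06 to 5.56 in knockout mice.

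Many members lie in gene clusters. The largest, on chromosome 5 (chr5:87318849-88005246 in mm9), held 14 probes of 12 Ugt2a, Ugt2b and Sult1 genes over 686 kb, of which 5 rose and 1 fell, with a median difference of 0.20. Called and uncalled genes were interspersed along it. Ugt2b34 at one end rose, the other Ugt2b probes did not pass, and Ugt2a3, Ugt2a1 and Sult1d1 rose, with Ugt2b38 and Sult1b1 between them. The Gstm cluster on chromosome 3 (chr3:107701101-107846847) held 10 probes of 7 genes with no call, and the Ugt3a cluster on chromosome 15 (chr15:9244274-9300647) held 4 probes that all rose. One Gstm1 probe was placed on chromosome 5 by the array annotation.

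**Figure D3:**
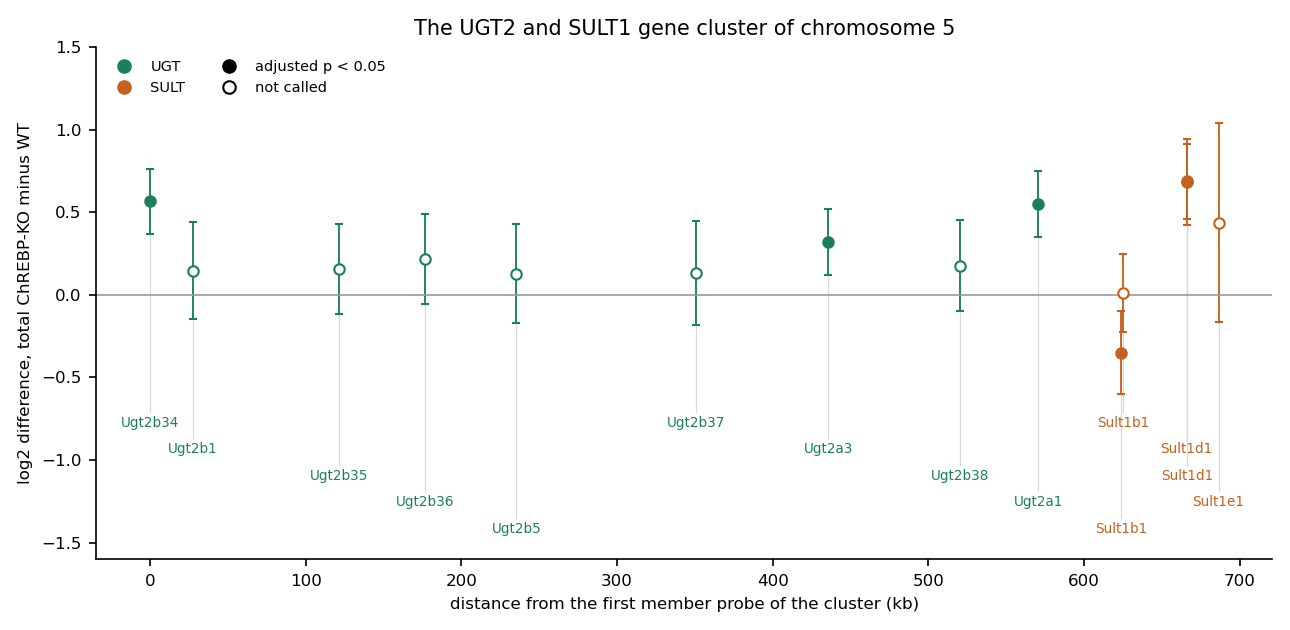
Log2 difference between total ChREBP-KO mice and WT littermates, with 95% intervals from limma, against the distance in kb from the first of the 14 probes of the chromosome 5 cluster; filled points have an adjusted p under 0.05. The 686 kb hold 5 rises, 1 fall (Sult1b1, -0.35) and 8 probes that did not pass the test, and the rises are separated by probes that were not called or fell, except at the neighbouring Sult1d1 probes.

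More than 1 probe read 14 of the genes. In 6 of them all probes were called the same way (Gsto1, Gstz1, Sult1a1, Sult1d1, Sult5a1 and Ugt3a2), in 4 some were called (Gsta3, Gstt2, Sult1b1 and Ugt1a6b) and in 4 none was. The size of the difference also depended on the probe, as for Sult5a1 (-1.70 and -0.69) and Gstz1 (0.43 and 0.20). When each gene was represented by its brightest probe, 16 genes rose and 4 fell.

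**Figure D4:**
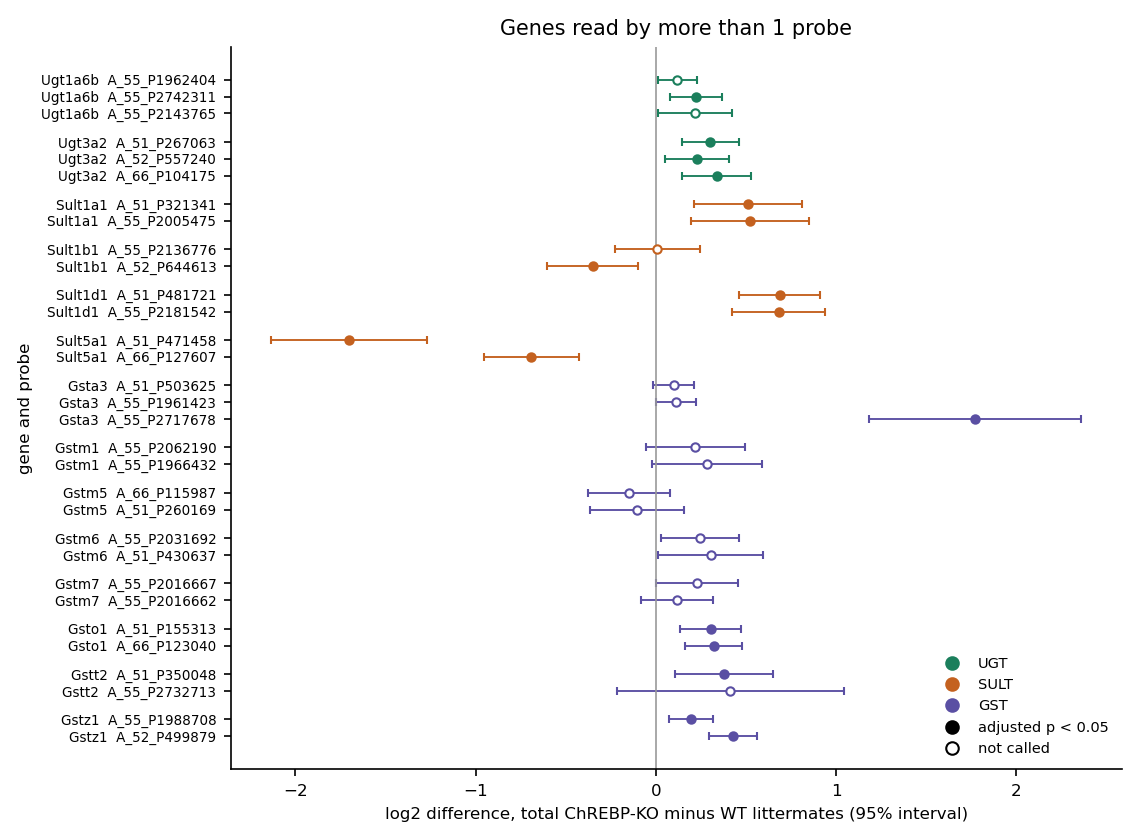
Log2 difference between total ChREBP-KO mice and WT littermates for every probe of the 14 genes with more than 1 probe, with 95% intervals from limma. Each row is 1 probe, and rows of the same gene are grouped. The probes of Gsta3 lie furthest apart, from 0.10 to 1.77, and those of Sult1d1 lie at 0.69 and 0.68.

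In ChREBPβ-deficient mice, no conjugation enzyme passed the test. None of 61 probes was called, beside 1 of 36059 probes in all (0.00277%), the Mlxipl probe A_55_P2119957, and the smallest adjusted p among members was 0.766. At an unadjusted limma p under 0.05, 12 members passed, all higher than in WT littermates (19.7%, beside 4.98% of all probes and 2.53% in that direction). They comprised 7 GST, 3 UGT and 2 SULT probes. The exact Mann-Whitney test gave 14 at an unadjusted p under 0.05 and none after adjustment. The limma count depended on the processing. It was 8 (13.1%, beside 4.86% of all probes) with 75th-percentile scaling of the processed signal and 6 (9.84%, beside 3.89%) with that of the median signal. With slide as a fixed block it was 7 (11.5%, beside 4.18%). Differences lay above 0 for 52 of 61 members (49.6% of all probes), with a median of 0.13 and a range of -0.23 to 0.44. Within scan days, at an unadjusted limma p under 0.05, none passed on the first (3 ChREBPβ-deficient and 4 WT arrays) and 15 on the second (5 and 4). The shares of all probes were 2.27% and 7.08%. The first day had fewer arrays and a smaller median difference of the members (0.0475, against 0.142), and the part of each in the counts was not tested. The 95% interval lay within 1.5-fold in both directions for 53 of 61 members, and reached a median of 0.244 and at most 0.744 to either side of the difference on the log2 scale.

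The members nearest to a call were in the theta class. Gstt3 ranged from 12.70 to 13.24 with a median of 12.95 in ChREBPβ-deficient mice and from 12.14 to 12.91 with a median of 12.55 in WT littermates, a difference of 0.44 (95% interval 0.20 to 0.68, adjusted p = 0.766). Gstt1 ranged from 15.18 to 15.57 and from 14.90 to 15.42, a difference of 0.28 (95% interval 0.12 to 0.44, adjusted p = 0.766). Ugt1a6b A_55_P1962404 (0.17, adjusted p = 0.843), Gstm6 A_55_P2031692 (0.33, adjusted p = 0.904) and both Gstz1 probes (0.18 and 0.17, adjusted p = 0.914 and 0.909) followed. In each the groups overlapped.

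The genes with large differences in total ChREBP-KO mice were not called in ChREBPβ-deficient mice. Sult5a1 A_51_P471458 ranged from 8.74 to 9.97 in ChREBPβ-deficient mice and from 8.55 to 9.65 in WT littermates (-0.06, 95% interval -0.48 to 0.35). Gsta3 A_55_P2717678 ranged from 8.66 to 9.98 and from 8.15 to 10.35 (0.05, 95% interval -0.52 to 0.61), with -0.73 on the first scan day and 0.66 on the second. Ugt2b34 ranged from 14.20 to 14.42 and from 14.05 to 14.53 (0.00, 95% interval -0.19 to 0.19). For Sult2b1 (0.13), Sult2a7 (0.20), Ugt1a10 (-0.15) and Sult1d1 A_51_P481721 (0.16), the ChREBPβ-deficient differences had the same sign as in total ChREBP-KO mice and were smaller.

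The difference of the knockout effects was itself tested, as the total ChREBP-KO difference minus the ChREBPβ-deficient difference. It was called for 12 of 61 members, 7 higher and 5 lower (19.7%, beside 15.1% of all probes, 7.02% higher and 8.08% lower). The largest were Sult5a1 A_51_P471458 (-1.64, adjusted p = 0.000197), Gsta3 A_55_P2717678 (1.73, adjusted p = 0.003), Ugt1a10 (-0.89, adjusted p = 0.0261) and Sult2a7 (0.85, adjusted p = 0.00242). Ugt2b34 (0.56, adjusted p = 0.00378), Ugt2a1 (0.53, adjusted p = 0.00692), both Sult1d1 probes, the other Sult5a1 probe, Sult1b1 A_52_P644613, Gsto1 A_66_P123040 and Gstcd made up the rest. For Sult1b1 A_52_P644613 the differences lay on opposite sides of 0, at -0.35 and 0.28. For Gstt3, Gstz1 and Gstp1 the difference of the effects was not called.

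**Figure D5:**
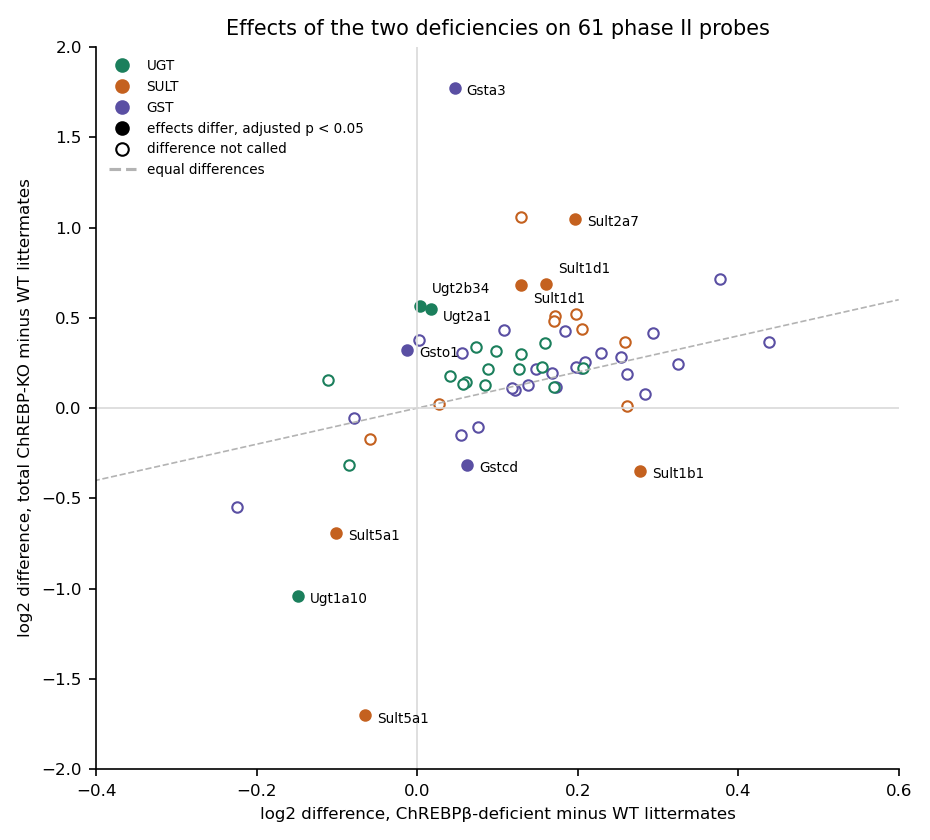
Log2 difference in ChREBPβ-deficient mice (horizontal axis) against that in total ChREBP-KO mice (vertical axis), each against its own WT littermates, for the 61 probes; filled points have an adjusted p under 0.05 for the difference of the effects, and the dashed line marks equal differences. All points lie between -0.23 and 0.44 on the horizontal axis and between -1.70 and 1.77 on the vertical axis.

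The WT groups of the lines also differed, and this touches any level compared across lines. WT mice of the total ChREBP-KO line were higher than WT mice of the ChREBPβ line at 2 members and lower at 9 (18.0%, beside 17% of all probes, 8.12% higher and 8.92% lower). Gstp1 was higher by 0.71 (adjusted p = 0.00206) and Sult1e1 by 0.83 (adjusted p = 0.043, lost without any 1 of 10 arrays). Sult2a7 (-0.59, adjusted p = 0.00263), Gstt3 (-0.56, adjusted p = 0.0011), both Gstz1 probes (-0.29 and -0.25), both Sult1b1 probes (-0.44 and -0.36), Gstt2 A_55_P2732713 (-0.94) and Ugt1a6b A_55_P2742311 and A_55_P1962404 (-0.22 and -0.15) were lower. With single arrays left out, the calls of Ugt1a6b A_55_P1962404 (adjusted p = 0.0478; 19 arrays), Gstt2 (5 arrays), Ugt1a6b A_55_P2742311 (4 arrays) and Sult1b1 A_55_P2136776 (4 arrays) were lost. The total ChREBP-KO levels of Gstt3 (median 12.36) and of Gstz1 A_55_P1988708 (median 15.85) thus lay below or near those of the other line's WT mice (12.55 and 15.87), although both rose within their own line. At the other Gstz1 probe, A_52_P499879, the rise (0.43) was larger than the gap between the WT groups (-0.29), so the knockout mean lay above that of the other line's WT mice. Line, litter and housing cannot be told apart in this comparison.

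The supply of cofactors moved less uniformly, and lists of genes around the enzymes are given by the brightest probe of each gene. Counts called in these and the following lists stand beside 14.5% of all probes higher and 14.6% lower in total ChREBP-KO mice. Of 7 genes for UDP-glucuronic acid supply and glucuronide removal, none rose and 3 fell: Ugp2, which makes UDP-glucose (-0.67, adjusted p = 0.000479), the nucleotide sugar transporter Slc35d2 (-0.73, adjusted p = 2.16e-07) and the glucuronidase Gusb (-0.52, adjusted p = 1.97e-06). Ugdh, which makes UDP-glucuronic acid, differed by -0.06. Other probes of Slc35d1, not its brightest, were higher (0.49 and 0.61). Of 13 genes for PAPS supply and sulfate removal, 2 rose (Suox, 0.45, and Sts, 0.24) and 3 fell (Slc26a1, -0.41, Slc35b3, -0.33, and Slc35b2, -0.19), and the PAPS synthases Papss1 and Papss2 did not pass the test.

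Of 11 genes for glutathione synthesis, glutathione turnover and mercapturate steps, 6 rose and 2 fell, with a median of 0.38. Both subunits of glutamate-cysteine ligase, Gclc (0.43, adjusted p = 0.0297) and Gclm (0.17, adjusted p = 0.0292), rose, as did Nat8 (0.68, adjusted p = 8.45e-05) and Dpep1 (0.71, adjusted p = 0.00681) of mercapturate formation, and Oplah (0.40) and Chac2 (0.38). Glutathione reductase Gsr fell by 0.38 (adjusted p = 0.00119) and Ggct by 0.39 (adjusted p = 0.00211). Of 20 other conjugation enzymes, 6 rose and 3 fell, among them the microsomal glutathione transferase Mgst2 (1.27, adjusted p = 0.0299), the amine methyltransferase Inmt (0.96, adjusted p = 0.000833) and the arsenic methyltransferase As3mt (-0.84, adjusted p = 1.86e-07).

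Transporters of conjugates, exporters and uptake carriers together, were mostly higher: 8 of 12 rose and 2 fell, with a median of 0.29. Abcc3, an exporter toward blood, rose by 1.20 (adjusted p = 4.9e-08), Abcc2, the canalicular exporter, by 0.65 (adjusted p = 7.07e-07), and the uptake carriers Slco1a4 and Slco1b2 by 1.12 (adjusted p = 0.00131) and 0.76 (adjusted p = 5.05e-05). Slco2b1 fell by 0.54 (adjusted p = 5.28e-08) and Abcc1 by 0.23 (adjusted p = 0.0452). Abcc3 and Slco1a4 were lower in WT mice of the total line than in WT mice of the β line (-0.86 and -1.29).

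Of 22 known regulators of conjugation genes, 7 rose and 3 fell. The xenobiotic receptors Nr1i3 (CAR) and Ahr rose by 1.17 (adjusted p = 1.05e-06) and 1.24 (adjusted p = 1.94e-07), Ppara by 0.69 (adjusted p = 0.000809), and the clock output factors Dbp and Tef by 3.19 (adjusted p = 0.0143) and 1.21 (adjusted p = 0.0262). Arnt and Maff rose as well, and Stat5b (-0.45, adjusted p = 8.99e-05) and Nr1h4 (-0.30) were among those that fell. Nr1i2 (PXR) differed by 0.02, and Nfe2l2 (NRF2) by -0.12 at its brightest probe and by -0.58 (adjusted p = 0.0073) at another. These are transcript levels, and the activity of the proteins was not measured. No gene of these lists was called in ChREBPβ-deficient mice.

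Lists of other cell types and liver states moved with the genotype in part. Lists with a share called near that of all probes (14.5% higher and 14.6% lower) are not read as changes, here and for non-hepatocyte markers. Female-biased liver genes had 7 of 13 higher and 1 lower in total ChREBP-KO mice, with a median of 0.64 (Cyp2b9 3.62, Cyp2a4 1.86), and summed to 17.77 to 18.43 in knockout mice and 16.94 to 17.43 in WT littermates, without overlap. Male-biased genes, among them Gstp1, had 4 of 15 higher and 2 lower, and summed to 19.95 to 20.11 and 19.80 to 20.20. Pericentral hepatocyte genes had 6 of 10 higher, with a median of 0.61 (Cyp1a2 1.5, Cyp2e1 0.69), and summed to 18.66 to 19.08 and 17.98 to 18.51, without overlap, although Glul, a defining pericentral gene, differed by 0.03. Periportal genes had 2 of 10 higher and summed to 18.23 to 18.92 and 18.09 to 18.97. The part of these states in the values of the conjugation enzymes was not tested.

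Of non-hepatocyte lists, cholangiocyte markers had 2 of 8 higher (summed levels 11.91 to 13.65 in knockout mice and 11.73 to 12.65 in WT littermates), leukocyte and Kupffer cell markers 1 of 10 (14.13 to 14.62 and 13.90 to 14.69) and endothelial and stellate cell markers 1 of 10 (13.74 to 14.40 and 13.64 to 14.10). Red blood cell markers had 1 of 7 higher (17.54 to 18.59 and 17.85 to 18.39). Adipocyte markers had 1 of 8 higher, Car3, which liver also expresses and which dominates the sum (17.28 to 17.65 and 16.29 to 17.07). Exocrine pancreas markers, of which 5 of 12 were tested, had 3 lower and summed to 10.07 to 14.24 in WT mice of the total line, against 10.18 to 11.74 in knockout mice. WT replicates 2, 7 and 8 (14.24, 12.6 and 12.7) lay above every knockout mouse, and replicate 2 was also the lowest for Sult2a8. The markers Prss2, Cpa1, Cpb1 and Pnlip did not pass the filter. Between WT groups, red blood cell markers were higher in the total line (17.85 to 18.39) than in the β line (16.53 to 17.59). The part of these cells in the results was not tested.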

How the data were processed

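The authors hybridised liver RNA of each mouse to 1-colour Agilent SurePrint G3 Mouse GE v2 arrays and read spots with Feature Extraction 10.10.1.1. The deposited scanner files hold intensity per spot, as median and mean pixel signal, background and processed signal. The authors used the median signal with no background subtraction. The deposited table holds log2 values that the authors filtered, quantile normalised and reduced to the median of spots with the same probe name.

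The same steps were repeated here on the scanner files (values correlated with those deposited at 0.999995). A spot passed on an array if Feature Extraction marked it found, positive and well above background. Spots passing on 26 or more arrays, or on 6 or more of a single group, were kept, which gave 36059 probes. One limma 3.58.1 model (R 4.3.3) of the 4 groups was fitted to all 31 arrays, with Benjamini-Hochberg adjustment over all probes and a threshold of 0.05. On simulated data with 200 of 36059 probes changed, the total ChREBP-KO comparison recovered 33% of 1.25-fold, 87.5% of 1.5-fold and 97.5% of 2-fold changes. The ChREBPβ comparison recovered 52%, 92.5% and 96%. False calls reached 8 and 24 at 1.5-fold. Each setting was drawn once, and recovery under this adjustment depends on how many probes change. The real comparisons called 10477 and 1 probes, so these shares do not give the power for the members.

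Depth has no meaning for arrays, and precision is limited by their number. Between 34131 and 38612 spots passed per array. Groups were taken from the sample labels. Total ChREBP-KO replicate 3 was not analysed here. Members and gene lists were chosen with earlier results of these data known. By rule, the text names the 16 genes with the largest called differences in total ChREBP-KO mice (brightest probe), the brightest gene of each subfamily, the 5 smallest p-values in ChREBPβ-deficient mice and for the difference of the effects, the 3 smallest between WT groups, and called genes of other lists. Other genes were named after their values were seen. Alternatives covered signal, background, normalisation, filter, slide, scan day, replicate number, test and each array left out. Replicate numbers were in label order and the check of pairing is given with the alternatives. Some called genes of the other lists are not reported here.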

Additional observations from a re-analysis of the deposited data

Results flagged for a closer look

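Within groups of 7 or 8 mice, 10 of 164 sets of values tested held 1 mouse set apart from the others by Dixon's criterion, and chance flags about 1 in 20. They came from 7 arrays, and no explanation was tested. Sult1d1 was lowest in WT replicate 5 of the total line at both probes (10.78, with the nearest mouse at 11.15, and 9.95, nearest 10.46), and in WT replicate 5 of the β line at A_51_P481721 (10.49, nearest 11.13). WT replicate 2 of the β line was apart for Ugt2a1 (9.55, nearest 9.96), Sult5a1 A_51_P471458 (8.55, nearest 9.15) and Gstk1 (14.5, nearest 14.2). WT mice of the total line were apart for Sult2a8 (replicate 2, 13.72, nearest 14.76), Gsta3 A_55_P1961423 (replicate 4, 16.91, nearest 17.1) and Ugt3a1 (replicate 6, 14.13, nearest 13.85). ChREBPβ-deficient replicate 1 was apart for Sult1a1 A_55_P2005475 (14.46, nearest 14.78).

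The effects of total ChREBP and ChREBPβ deficiency differed for 12 probes by the test of the difference itself. The differences were 1.73 for Gsta3 A_55_P2717678, -0.38 for Gstcd, 0.33 for Gsto1 A_66_P123040, -0.63 for Sult1b1 A_52_P644613, 0.53 and 0.55 for the Sult1d1 probes, 0.85 for Sult2a7, -1.64 and -0.59 for the Sult5a1 probes, -0.89 for Ugt1a10, 0.53 for Ugt2a1 and 0.56 for Ugt2b34. The Gsta3 difference was 2.91 on the first scan day and 0.66 (adjusted p = 0.534) on the second. When single arrays were left out, the calls of Gstcd (10 arrays), Sult1d1 A_55_P2181542 (5 arrays) and Gsto1 (4 arrays) were lost.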

How the results depend on the processing

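No called value of a single probe reversed under any alternative. Of 1624 results recomputed under other settings, 1406 kept direction and side of the threshold, 179 no longer passed, 9 newly passed and 30 reversed. Of 3255 results with 1 array left out, 3108, 106, 13 and 28 did. The causes were not tested. The authors' deposited table, random slide block, scan day block, normexp background and trend with robust fit kept every count of calls within 1.5 times.

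In total ChREBP-KO mice the 24 rises became 15 on scan day 1, 9 on scan day 2, 15 by the exact Mann-Whitney test and 5 with at least a 1.5-fold change. They ranged from 19 to 25 with single arrays left out. Over all probes, calls in either direction went from 10477 to 5806, 4762, 8030 and 2192 in the same order of settings. The 6 falls became 2 when spots had to pass on all arrays, 3 with slide as a fixed block and 3 with the fold. They ranged from 5 to 7 with single arrays left out. The filter on all arrays kept 51 members, without both Sult5a1 probes, Sult1b1 A_52_P644613 and Gstcd. Those falls were therefore not tested under it rather than lost. The SULT median of 0.44 was 0.0409 with no filter on dim spots. That median was taken over 28 SULT probes instead of 15, and the added probes had not passed the filter. On scan days 1 and 2 the SULT median was 0.155 and 0.585. The UGT median of 0.22 was 0.405 and 0.0959 on these days, and the GST median of 0.22 was 0.32 and 0.124. In ChREBPβ-deficient mice 0 were called under every alternative and 0 to 0 with arrays left out.

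For the difference of the effects, the 7 higher became 4 on scan day 1, 0 on scan day 2 and 2 with the fold (6 to 8 with arrays left out). The 5 lower became 3 with 75th-percentile scaling of the median signal and 1 with all arrays required. With all arrays required, both Sult5a1 probes, Sult1b1 A_52_P644613 and Gstcd were not tested. The 5 lower became 2 with slide fixed, 0 on day 1 and 2 on day 2 (4 to 5 with arrays left out). Over all probes, calls of this difference in either direction went from 5444 to 1520 on day 1 and 1990 on day 2. They were 1921 with the fold and 3944 with slide fixed. Between WT groups, the 2 higher became 1 with no filter, 0 with slide fixed, 0 on day 1, 1 in a separate fit and 1 by Mann-Whitney (1 to 2). The 9 lower became 2 with slide fixed, 0 on day 2, 4 by Mann-Whitney and 2 with the fold (6 to 13). Over all probes, calls between WT groups in either direction went from 6144 to 2098 with slide fixed, 2290 on day 1 and 1514 on day 2. They were 5387 with no filter, 4950 in a separate fit, 3740 by Mann-Whitney and 915 with the fold.

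All reversals were of uncalled differences, up to 0.23 in size. In total ChREBP-KO mice, Sult1b1 A_55_P2136776 (0.01) became -0.0087 and -0.0236 with 75th-percentile scaling of processed and median signal and -0.0859 on scan day 2, Sult1c1 became -0.0645 with slide fixed and -0.0787 on day 1, and Gstp2 0.0093 on day 1. On day 2, Gstm3 was -0.0368, Ugt2b1 -0.1953, Ugt2b35 -0.1044, Ugt2b36 -0.0258, Ugt2b37 -0.1696, Ugt2b38 -0.0738 and Ugt2b5 -0.1636. In ChREBPβ-deficient mice, Ugt2b34 was -0.0627 and -0.061 under those scalings, -1e-04 with normexp, -0.0274 in the deposited table, -0.0101 with slide fixed, -0.0216 with a scan day block and -0.0384 on day 2. Gsta3 A_55_P2717678 was -0.0898 with slide fixed and -0.7258 on day 1, and Ugt2a1 was -0.0151 with slide fixed, -0.007 with a scan day block and -0.0163 on day 2. On day 1, Gstm6 A_51_P430637 was -0.0206, Sult5a1 A_51_P471458 0.0889 and Sult5a1 A_66_P127607 0.0059, and on day 2 Gsto1 A_66_P123040 was 0.011 and Ugt1a10 0.0136.

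With arrays left out, the ranges that crossed 0 were, in ChREBPβ-deficient mice, -0.1062 to 0.2078 for Gsta3 A_55_P2717678, -0.0367 to 0.0278 for Gsto1 A_66_P123040, -0.1726 to 0.0022 for Sult5a1 A_51_P471458, -0.0409 to 0.0334 for Ugt2a1 and -0.0291 to 0.0396 for Ugt2b34. In total ChREBP-KO mice they were -0.0515 to 0.0991 for Sult1b1 A_55_P2136776, -0.039 to 0.1044 for Sult1c1 and -0.0134 to 0.2168 for Ugt2b1.

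With the replicate number as a block, 38 members had an unadjusted p under 0.05 in total ChREBP-KO mice (39 without), 16 in ChREBPβ-deficient mice (12 without) and 17 for the difference of the effects (14 without). Deviations of same-numbered mice correlated between -0.156 and 0.533 in the β line (8 pairs, 4 of them best with their own number) and between -0.215 and 0.241 in the total line (7 pairs, 1 of them). The main model did not pair the mice. Some pairs of each line correlated below 0, although the β line's correlations were a hint of shared deviations in some pairs.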
